A study of Rattus norvegicus with 6 samples.

Results

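Genes for glucose uptake, glycolysis, lactate and pyruvate use and glycogen turnover were examined in neonatal rat ventricular cardiomyocytes (NRVCs) with and without C3a, the small fragment released when complement C3 is cleaved. The set held 35 genes listed by their place in these pathways, and all 35 were among the 16575 genes with a named probe on the array. The NRVCs came from Sprague-Dawley rats 1 to 2 days old, with 8 to 10 hearts pooled for a preparation. Control cells (n = 3) received no C3a, and treated cells (n = 3) received C3a at 0.5 µg/ml for 12 h; both were kept in medium that the sample records describe as serum-free, and the methods add a short starvation in low serum before stimulation. RNA was measured with 1-colour Agilent arrays, 1 for each sample, and the log2 signal is given relative to the 75th percentile of all probes on the array. The records do not say whether the 3 samples of a condition were separate cultures, so the p-values measure only the spread between these samples, which may be technical.

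Glycolysis splits glucose into pyruvate in the cytosol. Pyruvate is then reduced to lactate or carried into mitochondria, where the pyruvate dehydrogenase complex turns it into acetyl-CoA. The fetal heart relies on glucose and lactate and the adult heart mainly on fatty acids, and the failing heart is known to return in part to the fetal pattern. Several steps have isoforms tied to this switch. Slc2a1 (GLUT1) carries glucose without insulin and prevails in the fetal heart, whereas Slc2a4 (GLUT4) is the insulin-responsive carrier of adult muscle. Likewise Hk1 is the hexokinase of most tissues and of the fetal heart, and Hk2 that of insulin-sensitive muscle.

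The median local background was 47 on control replicate 1 and 23 to 24 on the other 5 arrays, and 38.6% of probes were well above background on that array compared with 53.7% to 57.3% elsewhere. Controls and treated samples occupied opposite sides of a single slide, so position and treatment cannot be told apart. All 35 genes had a probe well above background on the 3 arrays of at least one condition, and 33 of them were so on all 6 arrays; Hk2 and Pfkfb1 were not on control replicate 1. Of 18 cardiomyocyte markers, 17 were on the array and all 17 were above background on every array. Their summed linear signal relative to the 75th percentile ranged from 7047 to 9182 in control and from 8834 to 10038 with C3a. Of the 17, 14 had a higher mean with C3a, where 6300 of all 10392 genes did. The median log2 difference of the 17 was 0.16. All of the 17 but Ryr2 were in the brightest of 10 equal groups of genes by signal. The median of that group was 0.11 and its lower quartile 0.049, so most equally bright genes were also higher with C3a. The 12 fibroblast markers summed to 299 to 348 in control and 319 to 362 with C3a. Of the 12, 9 had a lower mean with C3a, where 4092 of all 10392 genes did. The median log2 difference of the 12 was -0.043. Of 10 macrophage markers, Lyz2 and Cd68 were above background on all 6 arrays, and Mrc1, C1qa and Cd163 on none. The macrophage list summed to 5.90 to 7.47 in control and 5.84 to 6.35 with C3a. Endothelial markers summed to 34.5 to 47.0 in control and 43.2 to 54.6 with C3a. For smooth muscle and pericyte markers the sums were 101 to 121 and 103 to 119. For red blood cell markers they were 27.5 to 29.6 and 26.3 to 39.6. In such bulk samples fewer cells of a type and less RNA per cell cannot be told apart, and the part of these marker differences in the results that follow was not tested.

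No gene of the set passed an adjusted p under 0.05 (limma, Benjamini-Hochberg over 23438 probes), and neither did any other probe on the array, a background of 0%. The smallest adjusted p of the set was 0.743. Unadjusted, 0 of 35 genes had a p under 0.05, where 5.33% of the 10392 genes with a probe above background did. The methods' test, an analysis of variance on each gene, also gave 0 of 35 before and after adjustment (background 4.93% unadjusted). The log2 differences (C3a minus control) ran from -0.46 for Pfkfb1 to 0.23 for Hk2, with 22 genes (62.9%) above 0 and 13 below. Of all 10392 genes, 60.6% lay above 0. The median of the set was 0.044, against 0.036 over all 10392 genes. The precision was set by 3 arrays a condition, with standard errors of 0.092 to 0.235 and a median of 0.108. The 95% interval stayed within 1.5-fold in either direction for 30 of the 35 genes and within 2-fold for all 35. In 22 genes the difference was smaller than the SD of the 3 controls. Separation of the conditions without overlap was seen for Slc2a1 and Pfkl, both higher with C3a (background 8.15%), and for 0 of the 35 in the lower direction (background 4.84%).

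**Figure D1:**
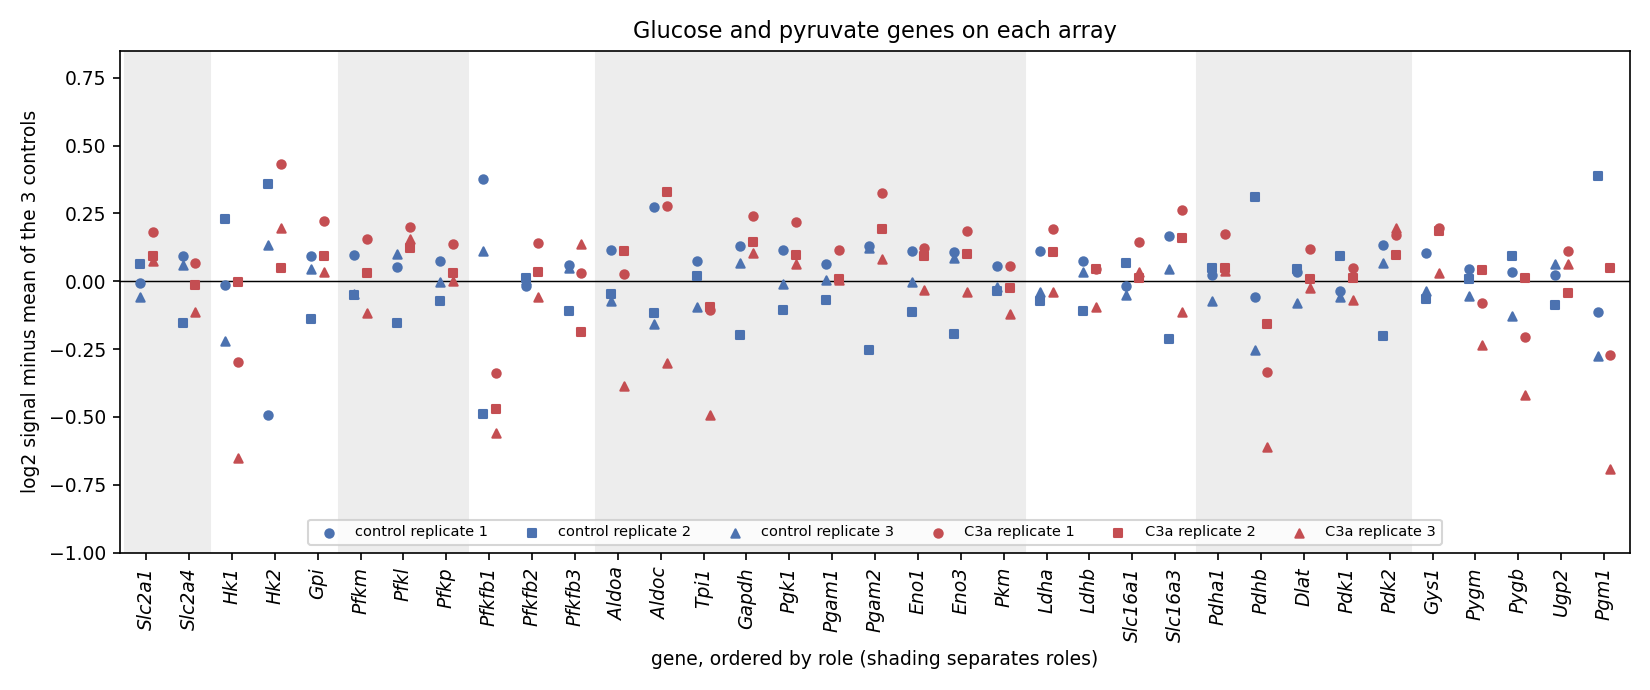
Log2 signal of each of the 35 genes on each array, as the difference from the mean of the 3 controls (vertical axis), with genes ordered by role and shading between roles. Control arrays are blue and C3a arrays red, and the marker shape gives the replicate number; C3a replicate 3 is the lowest C3a array for 29 of the 35 genes.

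The arrays of a condition stood in a similar order for many of these genes. C3a replicate 3 was the lowest of the C3a arrays for 29 of 35 genes, where this held for 50.6% of all genes. C3a replicate 1 was the highest of all 6 arrays for 20 of 35 genes and for 33.2% of all genes. Control replicate 2 was the lowest control for 20 genes (51.1% of all genes) and the highest for 11 (28.7%). These shares are given as a description, since genes of one array share its RNA and its scaling. Without C3a replicate 3, 27 of 35 genes lay above 0 and the median log2 difference of the set was 0.083, against 0.053 for all probes.

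The promoters of these genes were also searched for short motifs. RefSeq promoters of the rat GRCr8 assembly, the 250 bases before the annotated start, were matched for 33 of the 35 genes, all but Slc2a4 and Pgk1. The letters ACGTG are a form of the core of the site bound by hypoxia-inducible factor. The form GCGTG was not counted, and below the core means ACGTG only. ACGTG was found on either strand in 14 of these 33 (42.4%). It was found in 21.8% of 9153 promoters of genes with a probe above background and in 16.6% of all 33469. The mean GC content was 59.5% in the set and 59.5% in the genes above background. The longer palindrome CACGTG, an E-box that contains this core on both strands, occurred in 5 of 33 (15.2%, against 7.99% of the genes above background). GGGCGG, the GC box, occurred in 54.5% and 56.4% of them. TATAAA, the TATA box, occurred in 9.09% and 7.65%. These matches are a description of the letters in this window and not of a bound site. The promoters of Slc2a1, Hk1, Ldha and Pdhb are shown because they stand for glucose entry, its phosphorylation, lactate and pyruvate use and differ in this core, with 1, 0, 3 and 4 matches counted over both strands. They read 5′ to 3′ on the strand of the gene, with the core in capitals; Slc2a1 lies at chr5:138002272-138002521 (plus strand), Hk1 at chr20:30874815-30875064 (minus), Ldha at chr1:106507842-106508091 (plus) and Pdhb at chr15:19182539-19182788 (plus).
Slc2a1: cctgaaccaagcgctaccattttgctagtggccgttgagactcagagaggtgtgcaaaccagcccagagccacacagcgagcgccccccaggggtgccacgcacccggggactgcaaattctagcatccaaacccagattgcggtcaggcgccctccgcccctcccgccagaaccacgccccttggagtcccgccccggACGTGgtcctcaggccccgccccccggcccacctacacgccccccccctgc
Hk1: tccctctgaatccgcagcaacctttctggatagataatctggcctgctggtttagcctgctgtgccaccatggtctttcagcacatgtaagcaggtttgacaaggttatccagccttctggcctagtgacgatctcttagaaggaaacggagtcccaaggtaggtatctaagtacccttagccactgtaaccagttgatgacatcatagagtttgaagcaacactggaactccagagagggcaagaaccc
Ldha: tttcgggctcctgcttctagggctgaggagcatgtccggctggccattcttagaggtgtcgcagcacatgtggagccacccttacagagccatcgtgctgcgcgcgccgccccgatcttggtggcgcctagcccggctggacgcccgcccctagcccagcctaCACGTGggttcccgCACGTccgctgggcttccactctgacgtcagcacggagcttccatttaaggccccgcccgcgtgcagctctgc
Pdhb: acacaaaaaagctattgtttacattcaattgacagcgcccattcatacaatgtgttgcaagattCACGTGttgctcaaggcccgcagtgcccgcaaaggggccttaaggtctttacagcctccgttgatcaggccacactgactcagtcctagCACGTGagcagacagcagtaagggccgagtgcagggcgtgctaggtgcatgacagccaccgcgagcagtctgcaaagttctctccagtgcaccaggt
The core of Slc2a1 began 51 bases before the annotated start, and those of Ldha lay within the last 87 bases. The log2 differences of these 4 genes were 0.12, -0.32, 0.09 and -0.37. Genes that hypoxia is known to induce, 10 of 11 listed with a probe above background, had a median log2 difference of 0.0056 and 0 of 10 at an unadjusted p under 0.05 (background 5.33%). Conditions did not overlap for 2 of the 10, both higher with C3a (background 8.15%), namely Ankrd37 (0.22) and Car9 (0.21), a carbonic anhydrase. Car9 was not well above background on control replicate 1, and its difference without that array was 0.091; Ankrd37 was 0.13 without C3a replicate 1. Hif1a, the oxygen-regulated subunit of that factor, differed by 0.15 with overlapping conditions.

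The glucose carriers were the first step of the pathway. Slc2a1 read 2.72, 2.79 and 2.66 in the controls and 2.90, 2.82 and 2.79 with C3a. The conditions did not overlap, although the gap between the highest control and the lowest C3a array was narrow. The log2 difference was 0.12 ± 0.092 (SE) with a 95% interval of -0.10 to 0.33 and an adjusted p of 0.750 (limma). Slc2a4 read 3.44, 3.19 and 3.41 in the controls and 3.42, 3.34 and 3.23 with C3a. Its lowest and its highest value were both controls, and its difference was -0.020 with an interval of -0.28 to 0.24. Neither difference passed the test.

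Of the genes that phosphorylate and isomerise glucose, Hk1 read 2.11, 2.36 and 1.91 in the controls and 1.83, 2.12 and 1.47 with C3a. Each C3a array lay below the control with the same number, while the conditions overlapped because replicate 2 was the highest in both. The difference was -0.32 ± 0.19 (SE; adjusted p = 0.743, limma). Hk2 read -2.47, -1.62 and -1.84 in the controls and -1.54, -1.93 and -1.78 with C3a. The lowest value was on control replicate 1, where the probe was not well above background, and the difference of 0.23 was -0.020 when that array was left out. Gpi, which isomerises glucose 6-phosphate, differed by 0.12 with overlapping conditions.

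Phosphofructokinase is the main point of control of glycolysis. Its liver-type subunit Pfkl read -0.45, -0.65 and -0.40 in the controls and -0.30, -0.38 and -0.34 with C3a. All C3a arrays lay above all controls, and the difference was 0.16 with an interval of -0.085 to 0.40. The muscle subunit Pfkm differed by 0.023 and the platelet subunit Pfkp by 0.055, both with overlapping conditions. The Pfkfb enzymes make and degrade fructose 2,6-bisphosphate, the strongest activator of phosphofructokinase. Pfkfb1, the form known from liver and muscle, read -2.58, -3.45 and -2.85 in the controls and -3.30, -3.43 and -3.52 with C3a. The controls spread widely, and control replicate 2 lay among the C3a arrays. The difference of -0.46 ± 0.22 (SE) was the largest of the set in size, with an interval of -0.96 to 0.052. Its probe was in the dimmest of 10 equal groups of genes by signal. The highest value of Pfkfb1 was on control replicate 1, where the probe was not well above background. Without that array the difference was smaller in size. The heart form Pfkfb2 differed by 0.038 and the inducible form Pfkfb3 by -0.0077.

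The 10 genes of lower glycolysis, from aldolase to pyruvate kinase, had 7 differences above 0 (background 60.6%) and 3 below. Their median was 0.072, and 0 had an unadjusted p under 0.05. They lay in the brightest groups of genes by signal, whose medians were 0.056 and 0.11. Tpi1, which interconverts the triose phosphates, read 4.04, 3.99 and 3.87 in the controls and 3.86, 3.88 and 3.48 with C3a. C3a replicate 3 was far below the other 5 arrays and C3a replicate 2 just above the lowest control, and the difference was -0.23 ± 0.14 (SE). The others lay between -0.082 for Aldoa, the muscle aldolase, and 0.20 for Pgam2, the muscle phosphoglycerate mutase. Gapdh, often used as a reference gene, differed by 0.16 and Pgk1, the first step that yields ATP, by 0.13; after quantile normalization they were -4.5e-05 and -0.044. Pkm, the pyruvate kinase of muscle and growing cells, differed by -0.030.

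The 4 lactate genes had differences between -0.0016 and 0.10. Ldha, the lactate dehydrogenase subunit of skeletal muscle, differed by 0.088 and Ldhb, that of heart, by -0.0016. The monocarboxylate carriers Slc16a1 and Slc16a3 differed by 0.063 and 0.10. All 4 had overlapping conditions.

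In the pyruvate dehydrogenase complex, Pdhb encodes the beta subunit of the first enzyme and Pdha1 its alpha subunit. Pdhb read 3.99, 4.36 and 3.79 in the controls and 3.71, 3.89 and 3.44 with C3a. Replicate 2 was the highest and replicate 3 the lowest in both conditions, and C3a replicate 2 lay above control replicate 3. The difference was -0.37 ± 0.18 (SE) with an interval of -0.79 to 0.058 and an adjusted p of 0.743 (limma). Pdha1 differed by 0.087 and Dlat, the second enzyme, by 0.034. The kinases Pdk1 and Pdk2, which switch the complex off, differed by -0.0029 and 0.15. Pdk4, the kinase that fasting and fatty acids are known to induce, was not in the set and differed by 0.14, also with overlapping conditions.

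Among the 5 glycogen genes, Pgm1, which interconverts glucose 1- and 6-phosphate, read 0.97, 1.47 and 0.80 in the controls and 0.81, 1.13 and 0.39 with C3a. Its order of arrays was that of Pdhb, with replicate 2 highest and replicate 3 lowest in each condition. The difference was -0.30 ± 0.24 (SE). The glycogen phosphorylases Pygb and Pygm differed by -0.20 and -0.091, the glycogen synthase Gys1 by 0.14, and Ugp2, which makes UDP-glucose, by 0.044.

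**Figure D2:**
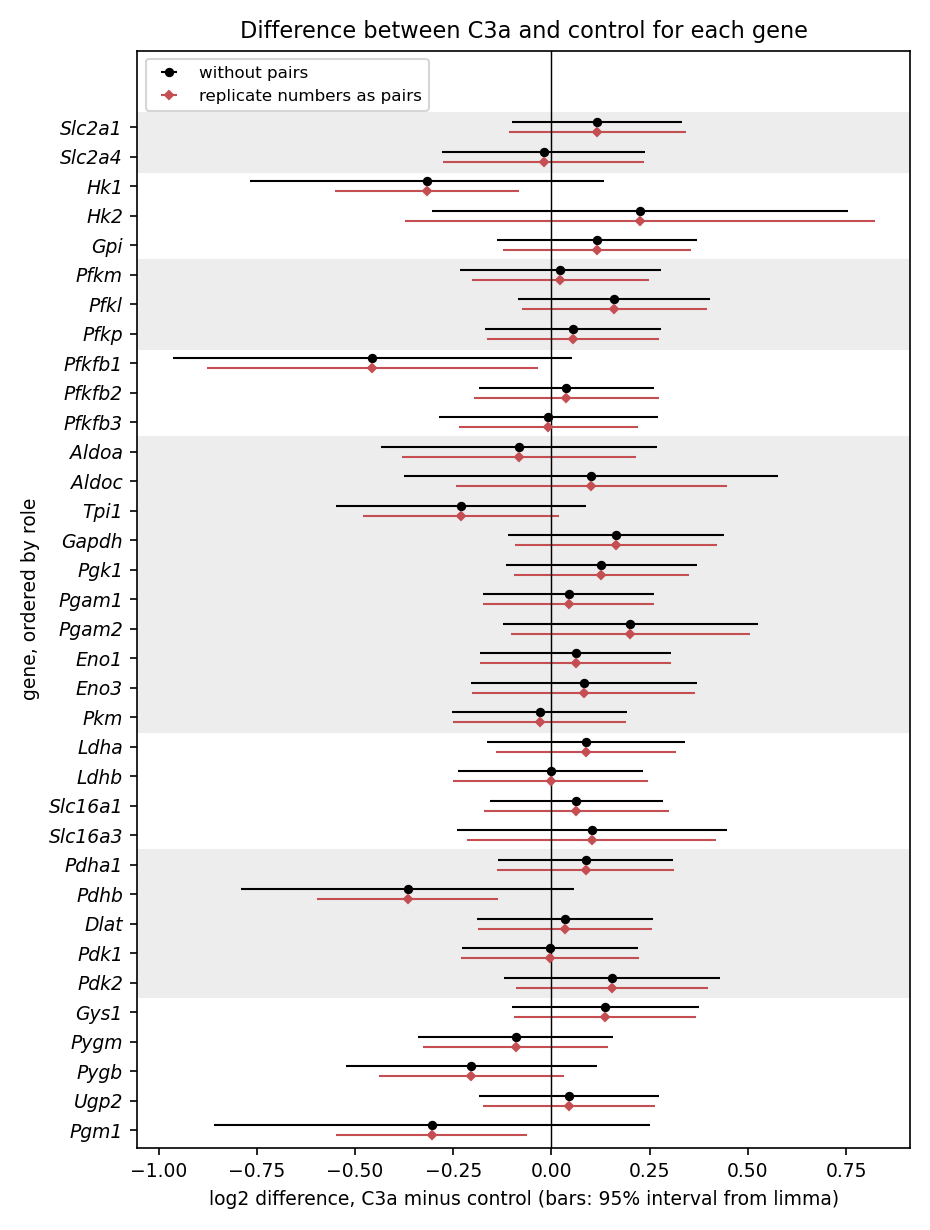
Log2 difference (C3a minus control, horizontal axis) of each of the 35 genes, with 95% intervals from limma without pairs (black circles) and with the replicate numbers as pairs (red diamonds). All black intervals include 0, and the red intervals of Hk1, Pfkfb1, Pdhb and Pgm1 lie below it.

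Arrays with the same replicate number deviated together from their condition means, so the comparison was also fitted with the number as a block. The adjusted p stayed above 0.05 for all 35 genes, the smallest being 0.242 for Pdhb. At an unadjusted p under 0.05 the count moved from 0 to 4 of 35 (11.4%), a share near the background of 11.8%. All 4 were lower with C3a, where 6.04% of all genes passed in that direction, and 0 were higher, where 5.8% did. These were Pdhb (unadjusted p = 0.0088), Hk1 (0.017), Pgm1 (0.023) and Pfkfb1 (0.039). Within pairs, 5 of 35 genes were lower with C3a in all 3 pairs (background 15.1%), namely Hk1, Tpi1, Pdhb, Pygb and Pgm1, and 9 were higher in all 3 (background 23.5%). Leaving out pair 1 kept Pdhb and Pgm1 under the unadjusted threshold, leaving out pair 2 kept Hk1, Pfkfb1 and Pdhb, and leaving out pair 3 kept Pdhb only.

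Fetal and adult isoforms were compared through the difference of the 2 log2 signals within an array. The size of that difference also holds the brightness of each probe, so only its change between conditions is read. Slc2a1 minus Slc2a4 was -0.73, -0.41 and -0.74 in the controls and -0.51, -0.52 and -0.44 with C3a. Control replicate 2 exceeded all C3a arrays. The change was 0.14 with a 95% interval, from the pooled SD, of -0.18 to 0.45 and p = 0.4 in a two-sided exact permutation test, which cannot go below 0.1 with 3 arrays against 3. Hk1 minus Hk2 was 4.58, 3.97 and 3.75 in the controls and 3.37, 4.05 and 3.25 with C3a. The conditions overlapped through C3a replicate 2, and the highest value was on control replicate 1, where Hk2 was not well above background. The change was -0.54 with an interval of -1.52 to 0.43 and an exact permutation p of 0.3, and it was -0.30 without control replicate 1. In 3 further pairs, Eno1 minus Eno3 differed by -0.020 (interval -0.17 to 0.13; exact permutation p = 0.9). Pgam1 minus Pgam2 differed by -0.16 (interval -0.44 to 0.13; exact permutation p = 0.2). Pygb minus Pygm, the brain and muscle phosphorylases, differed by -0.11 (interval -0.29 to 0.067; exact permutation p = 0.2) and was lower in 3 of 3 replicate pairs. Within the pairs it differed by -0.115, -0.112 and -0.112, an SD of 0.0020, but the exact sign test over 3 pairs gave 0.25, the smallest p it can reach. The within-pair changes of the other 4 had SDs of 0.10 to 0.64 and both signs. The adjusted p over the 5 pairs was 0.5 to 0.9. Neither exact test could reach 0.05 with these numbers of arrays, so they do not show that the isoforms moved alike, and for hexokinase the interval leaves room for more than a 2-fold shift in one direction. Single arrays also carried weight: Slc2a1 minus Slc2a4 was 0.25 without control replicate 2, 0.086 without control replicate 1 and 0.077 without control replicate 3, and without control replicate 2 Pgam1 minus Pgam2 was -0.064 and Pygb minus Pygm -0.071.

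**Figure D3:**
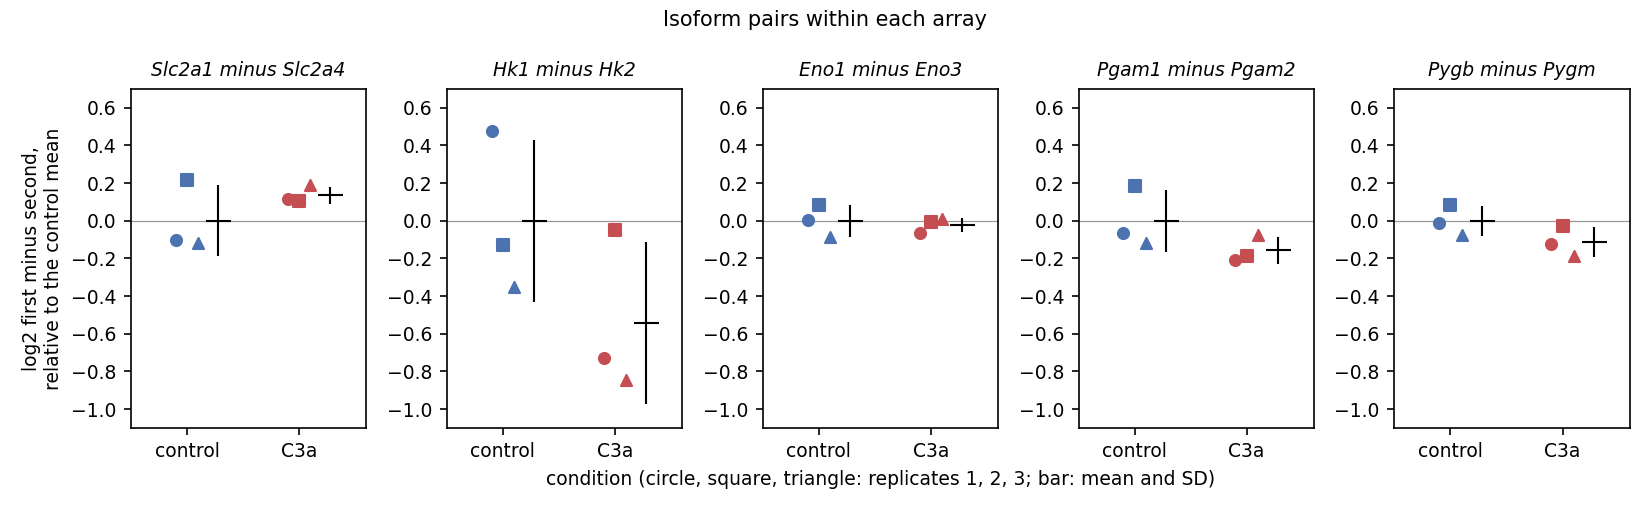
Within-array log2 difference of the first and second gene of 5 isoform pairs, relative to its control mean (vertical axis), for control (blue) and C3a (red); marker shapes give replicates 1 to 3 and black bars the mean and SD. The conditions overlap in all 5 pairs, and Hk1/Hk2 has the widest spread.

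The change of a gene on these arrays varied with its signal, so each gene was set beside genes of equal signal. The median log2 difference of all genes was computed in 10 equal groups by mean signal and ran from -0.014 to 0.11. The brightest group, with the median of 0.11, held 15 of the 35 genes, and the 3 brightest together held 25. Relative to the median of their own group, 14 of the 35 genes were above and 21 below, with a median of -0.023. The middle 50% of their group held 17 of the 35, with 13 below it and 5 above. The difference of Gapdh (0.16) was close to the 0.11 of its group. Pfkfb1, Pdhb, Hk1, Pgm1 and Tpi1 lay furthest below theirs.

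**Figure D4:**
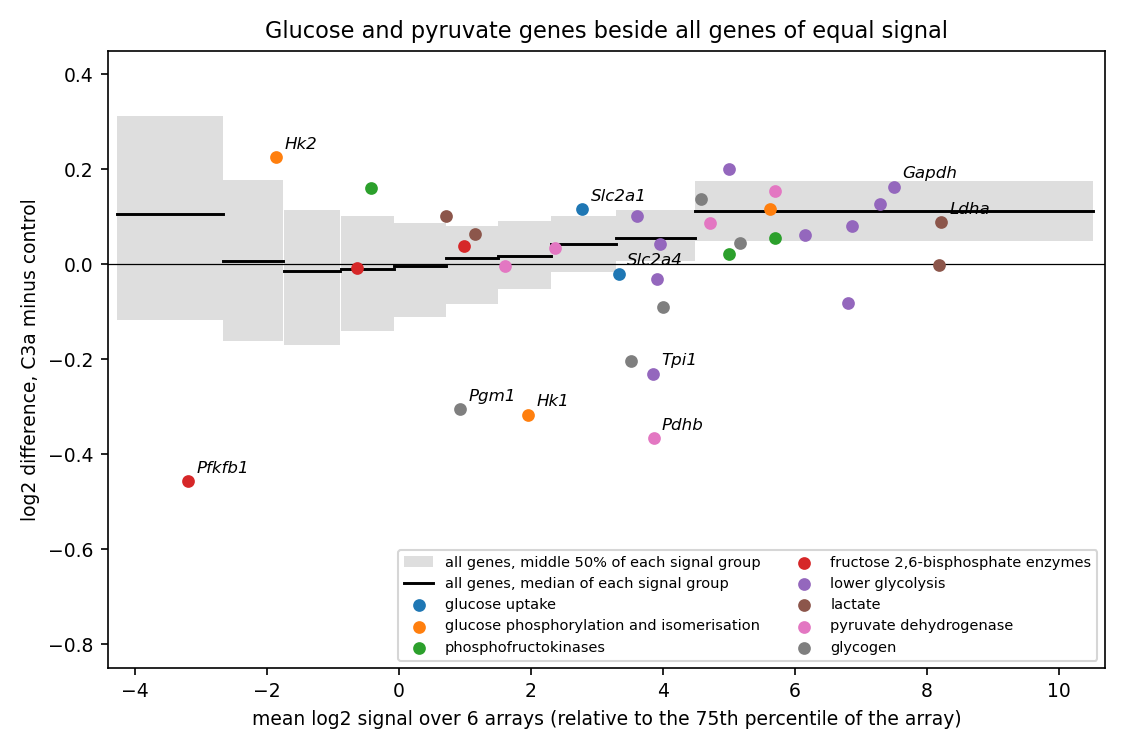
Log2 difference (C3a minus control, vertical axis) against mean log2 signal over 6 arrays for the 35 genes, coloured by role; black lines are the median and grey bands the middle 50% of all 10392 genes in 10 equal groups by signal. Of the 35 genes 17 lie within the bands, 13 below and 5 above, with Pfkfb1, Pdhb, Hk1, Pgm1 and Tpi1 furthest below the median lines.

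Several probes were kept for 9 of the 35 genes, and in 7 of these the probes lay on both sides of 0. The 8 Gapdh probes ranged from -0.16 to 0.28, with 4 on each side. The 4 Pdk1 probes ranged from -0.43 to 0.090. The 4 Pkm probes were all below 0, from -0.32 to -0.030, and the 3 Pfkfb2 probes all above, from 0.038 to 0.38. The Pfkfb2 probes at 0.38 and 0.13 were well above background on only 5 arrays, and so on all 3 arrays of just 1 condition. None of these 32 probes passed an unadjusted p under 0.05. With the replicate numbers as a block 6 of the 32 did, where 13.6% of all 23438 probes did, 3 of them higher with C3a (2 of Gapdh and 1 of Pfkfb3) and 3 lower (1 each of Eno1, Pkm and Pdk1). None of these 6 was the brightest probe that represented its gene.

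Other genes of glucose use were counted for comparison. Of 71 listed, 57 had a probe above background, with 31 differences above 0 (54.4%, background 60.6%), 26 below and a median of 0.015. Unadjusted, 1 of 57 had a p under 0.05 (background 5.33%). This was Pgd, an enzyme of the pentose phosphate branch that yields NADPH. Pgd read 1.00, 1.12 and 0.78 in the controls and 0.75, 0.74 and 0.33 with C3a. All C3a arrays lay below all controls, and the difference was -0.36 with an adjusted p of 0.743 (limma). Conditions did not overlap for 3 of the 57 in the lower direction (background 4.84%), namely Pgd, Rpia (-0.25), which isomerises ribose 5-phosphate, and Gyg1 (-0.37), the protein that primes glycogen. In the higher direction it was 1 of 57 (background 8.15%), Txnip (0.059), a restraint on glucose uptake. Control replicate 2 carried part of the lower values, with Gyg1 at -0.19 and Rpia at -0.14 when it was left out, and Pgd was -0.22 without C3a replicate 3. Of 14 regulators of glycolysis, 9 lay above 0 (background 60.6%) and 0 passed the unadjusted threshold. Irs1, the adaptor of the insulin receptor, was the 1 of 14 whose conditions did not overlap (0.50, higher with C3a, background 8.15%). Irs1 was not well above background on control replicate 1, and its difference without that array was 0.18.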

How the data were processed

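The records of the 6 samples gave their condition and replicate number. The authors deposited spot intensities from Agilent Feature Extraction 11.5.1.1 (per the labels), and a table of log2 values that was used as an alternative. The processed signal of that software was used for the main comparison. Control spots (4259 of 62976) and outlier spots were left out and spots of a probe averaged. Values were scaled as log2 intensity less the array's 75th percentile and compared with limma 3.58.1 in R 4.3.3 (two-sided, Benjamini-Hochberg adjustment) over 23438 probes that were well above background on all 3 arrays of a condition. Probes were named by accession through the RefSeq table of GRCr8, and a gene was represented by its brightest probe. The replicate numbers were taken as pairs for the block because of correlated deviations from the condition mean. The correlations were 0.28, 0.32 and 0.31 for equal numbers and -0.26 to -0.093 for unequal ones. Deviations cancel out within a condition, so positive values for equal numbers force negative ones on balance for the others. The records give no source for the pairing, and it was read from the same arrays that the block then tested. The rule named every gene of the set, with values on each array for the isoform genes, those without overlap or under the unadjusted threshold, and the 5 largest differences. Genes and lists were chosen with earlier results of these data known. Other genes beside these were named after their values were seen. The limma step was tested on simulated data with the spread of the real probes. At an adjusted p under 0.05 it called 4 of 50 probes with a true log2 change of 0.5. It called 66 of 100 at a change of 1, 45 of 50 at 2 and 6 of 23238 unchanged ones. A change of 0.5 would thus mostly have been missed. Alternatives were other scalings, filters, tests, probe summaries and left-out arrays; a slide or scan block was not possible with 1 slide and 1 scan.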

Additional observations from a re-analysis of the deposited data

How the results depend on the processing

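The count of 0 genes of the set and 0 probes at an adjusted p under 0.05 depended on scaling for the probes: 4 passed without normalization between arrays and 16 after scaling to 7 spike-in probes, none of them of the set. These scalings moved the median of all probes to -0.28 and -0.40, and that of the set to -0.28 and -0.41, so that all 35 genes lay below 0 and 22 changed sign. Quantile normalization gave a median of -0.044 for the set, against 0.022 for all probes, with 13 changes of sign. At an unadjusted p under 0.05 the set had 1 gene with quantile normalization (Tpi1), with the percentile over detected probes (Pfkfb1), with a variance trend (Pdhb) and with array weights (Pfkfb1), 5 without normalization and 4 with spike-in scaling. The replicate block gave 4, and 2, 3 and 1 without replicate pairs 1, 2 and 3, a step chosen after seeing the data. With single arrays left out the count was 0 to 1: Pfkfb1 without control replicate 2 (log2 difference -0.70), Pdhb without control replicate 3 (-0.49) and Hk1 without C3a replicate 2 (-0.47). Over these 6 fits the median of the set was 0.0095 to 0.083. Hk1, Pdhb, Pgm1, Tpi1, Pygb and Pygm kept their sign in all 20 alternatives, as did Pfkfb1 in the 19 that held it. All 35 genes lay below 0 without normalization and with spike-in scaling, so no gene above 0 could keep its sign throughout. Eno1 minus Eno3 turned above 0 in 2 of 14 alternatives, reaching 0.00063 without C3a replicate 1 and 0.021 without control replicate 2, in a range of -0.064 to 0.021 with single arrays left out, and was -0.18 with the mean of all kept probes. The other pairs kept their sign in all 14. The replicate block changed no adjusted call. The number of arrays and the background on control replicate 1 limit what could be seen for dim probes such as those of Hk2 and Pfkfb1. The cause of these shifts was not tested.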
